A study of Mus musculus with 10 samples.

Results

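Non-productive heavy-chain rearrangements are immunoglobulin sequences that the authors' tables mark as not encoding a complete heavy chain, and whose junction is out of frame, holds a stop codon or is missing. They were taken as the rows with an IGHV call that the authors' tables mark as not productive, and they made up 25820 of the 448970 rows of the 10 libraries. The same libraries held 313384 productive heavy-chain rows, against which they were set mouse by mouse, and 25667 non-productive kappa rows. The study transplanted GL261 cells, a mouse glioma line, into the brain of wild-type C57BL/6 mice and gave them an anti-CTLA-4 antibody (5 mice) or an isotype control IgG (5 mice). CTLA-4 is an inhibitory receptor of T cells. All 10 mice carried the tumour, no group without tumour or without antibody was among the samples, and the sources used here state neither dose nor timing of the antibody. At day 20 RNA was extracted from all cells of the deep cervical lymph nodes, without sorting of B cells, and 1 B cell receptor library with molecular identifiers was made per mouse. The cell type is labelled as immune cells, and because the tables hold only receptor sequences it could not be checked on marker genes.

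Each developing B cell joins a heavy-chain D segment to a J segment and then a V segment to the DJ join, with nucleotides trimmed and added at both joints. Joins fall into any reading frame, so many are out of frame or carry a stop codon, and a cell whose first allele failed may go on to rearrange its second. Such a failed allele stays in the genome of a cell that lives by its productive allele, so it is passed on through clonal expansion, hypermutation and class switching without having been tested as a receptor. Its transcripts carry premature stop codons and are targets of nonsense-mediated decay. In bulk RNA, fewer cells of a type and less RNA per cell cannot be told apart.

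The anti-CTLA-4 libraries held 2056, 2233, 2164, 3706 and 2528 non-productive heavy-chain rows (replicates 1 to 5), and the isotype libraries 2034, 3740, 2945, 1855 and 2559. They were 7.62% ± 0.580 of all heavy-chain rows (SD, n = 10, range 6.79 to 8.37), but only 2.84% ± 0.778 of the deposited heavy-chain counts (1.76 to 4.55). Among kappa light-chain rows the non-productive share was 24.5% ± 3.50. Libraries held 33568 to 63017 rows and 382184 to 790139 counts. The pairs of mice with the most rearrangements in common had consecutive replicate numbers of one group. Of 45 pairs of mice, the median pair had 1 non-productive rearrangement in common, while isotype replicates 3 and 4 had 43, anti-CTLA-4 replicates 3 and 4 had 24, anti-CTLA-4 replicates 1 and 2 had 21 and isotype replicates 1 and 2 had 20. The results below were recomputed without every clonotype found at a higher count in another mouse, which touched 182 of 22334 non-productive clonotypes (0.815%), and the tests between non-productive and productive sequences over values per mouse kept their calls. V calls were then 34 higher and 37 lower, against 34 and 34 with these clonotypes, and IGHV3-6, with a log2 fold change of -0.22, was among the added ones.

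A clonotype was a distinct combination of V call, J gene, junction and constant gene in a mouse. The junction runs from the conserved cysteine codon at the end of V to the conserved tryptophan codon TGG of J. There were 22334 non-productive clonotypes, against 284547 productive ones. The most counted non-productive clonotype of each mouse is printed here because 9 of the 10 had one form, a stop codon in place of the final TGG. The last codon is in capitals, all loci lie on mouse chromosome 12, and the constant gene and the deposited count precede each sequence.
Anti-CTLA-4 replicate 1, IGHV1-50 with IGHJ2, IGHG2C, count 1528: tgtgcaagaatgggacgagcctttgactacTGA
Anti-CTLA-4 replicate 2, IGHV1-78 with IGHJ3, IGHG1, count 634: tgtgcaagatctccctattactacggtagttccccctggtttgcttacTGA
Anti-CTLA-4 replicate 3, IGHV1-49 with IGHJ1, IGHG2C, count 606: tgtgcaagggagtacttcgatgtcTGA
Anti-CTLA-4 replicate 4, IGHV5-17 with IGHJ1, IGHA, count 475: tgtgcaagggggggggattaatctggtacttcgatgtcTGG
Anti-CTLA-4 replicate 5, IGHV1-9 with IGHJ3, IGHG2C, count 499: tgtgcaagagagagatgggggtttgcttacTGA
Isotype replicate 1, IGHV1-50 with IGHJ2, IGHG2C, count 282: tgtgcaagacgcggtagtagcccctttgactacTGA
Isotype replicate 2, IGHV2-9 with IGHJ1, IGHG2B, count 357: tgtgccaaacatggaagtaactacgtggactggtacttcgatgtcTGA
Isotype replicate 3, IGHV1-47 with IGHJ3, IGHE, count 643: tgtgcattactacggtttgcttacTAG
Isotype replicate 4, IGHV9-3 with IGHJ4, IGHE, count 112: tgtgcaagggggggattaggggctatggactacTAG
Isotype replicate 5, IGHV1-15 with IGHJ2, IGHG2C, count 71: tgtactatgggggttacgacaggctacTGA
The exception, in anti-CTLA-4 replicate 4, was an out-of-frame IgA junction of 41 nucleotides that ended in an intact TGG. All 7 IgG examples end in TGA and both IgE examples in TAG. Each of the 9 had a productive clonotype of the same mouse, V call, J and constant gene whose junction was the same up to the last codon, with 2479 to 59873 counts, and held 2.30% to 2.86% of that clonotype's count.

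By the cause of the failed reading frame, 13265 clonotypes (59.0% ± 3.15 per mouse, 54.9 to 64.8) were out of frame, 6342 (28.9% ± 3.64) had an in-frame junction whose last codon was a stop, and 2727 (12.1% ± 1.02) had a stop further inside. A further 1769 rows (6.92% ± 1.09 of the non-productive rows) had no junction at all. No productive row was out of frame or had a stop in its junction, but 4749 productive rows had a stop codon in the translated V region, so the authors' mark followed the junction alone. Out-of-frame junctions were spread evenly over both wrong frames, with 6772 junctions 1 nucleotide over a multiple of 3 (50.9% ± 1.55) and 6493 with 2 over (49.1% ± 1.55). Stops inside the junction were TAG in 44.2%, TGA in 34.8% and TAA in 21.0% of clonotypes. Stops at the last codon were of another make-up, with 5280 TAG (83.3%), 1059 TGA (16.7%) and 3 TAA.

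The stop at the last codon went with the constant region. TAG stood in 5105 of 5171 IgM clonotypes of this kind (98.7%) and 78 of 80 IgE clonotypes (97.5%), and TGA in 970 of 1038 IgG clonotypes (93.4%). IgD had 32 such clonotypes and IgA 8. As a share of all heavy-chain clonotypes of a class, they were 12.8% ± 1.63 in IgG (lowest 10.3, median 12.4, highest 15.4), 15.7% ± 8.03 in IgE (9 mice), 0.437% ± 0.565 in IgA, 0.0413% ± 0.0276 in IgD and 2.31% ± 0.135 in IgM (2.14, 2.32 and 2.58). The lowest IgG mouse lay above the highest IgM mouse, and the highest IgD mouse lay below the lowest IgM mouse. IgM, the class with the most clonotypes, had the smallest relative spread between mice.

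To see where these changes sit, productive rows and rows with a last-codon stop were compared with the most common base of their J gene. The comparison covered 30 positions, counted from 1 at the first base of the junction's last codon. Rows that were out of frame, had a stop inside or had no junction were left out of it. A change is written as the common base, its position and the base found. With all J genes pooled, the position that differed most was 2 in IgM and 3 in IgG. In IgD it was 24, through IGHJ3 rows, and position 5 carried the change given below. Positions were not ranked within each J gene. Positions 2, 3 and 5 are in capitals here in the IGHJ2 sequence that starts at the last codon.
IgM, position 2: tGgggccaaggcaccactctcacagtctcc
IgG, position 3: tgGggccaaggcaccactctcacagtctcc
IgD, position 5: tgggGccaaggcaccactctcacagtctcc
G2A, which turns TGG into TAG, was in 2.33% ± 0.116 of IgM rows (n = 10) and 13.8% ± 3.56 of IgE rows (n = 7). G3A, which turns TGG into TGA, was in 9.64% ± 1.56 of IgG rows. IgD rows carried G5A in 1.93% ± 0.257. That change lies past the junction and makes no stop codon, so IgD rows with it stayed productive. Each change was less frequent in the other classes. The highest class means there were 0.441% for G2A, in IgG (up to 0.952% in a mouse), 0.512% for G3A and 0.279% for G5A, both in IgE. IgM rows held G3A in 0.0355% and G5A in 0.0851%, IgD rows held G2A in 0.0314%, and IgA rows held G2A in 0.113% and G3A in 0.00956%. For scale, the median of the 30 positions differed in 0.0726% of IgM rows, 0.0668% of IgD rows, 0.454% of IgG rows, 0.647% of IgA rows and 0.530% of IgE rows.

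**Figure D1:**
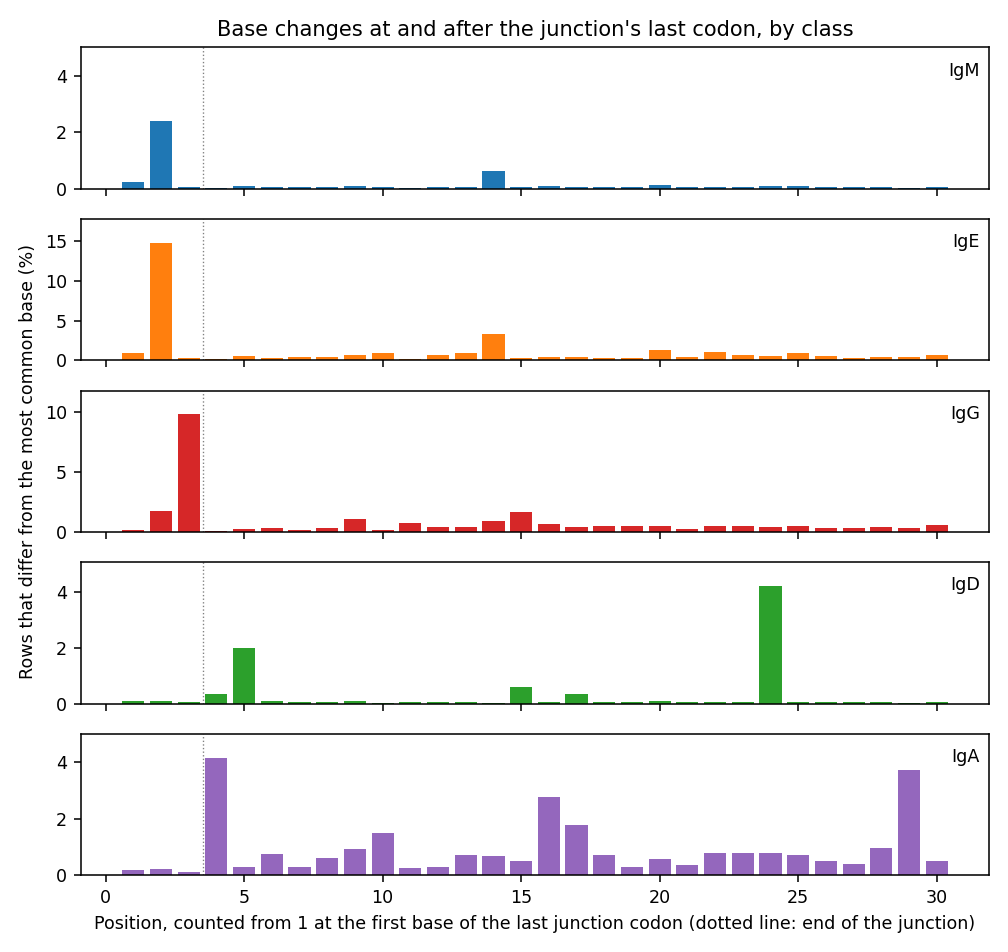
Percent of productive and last-codon-stop rows of all 10 mice whose base differs from the most common one of their J gene (bars, linear axis). The 30 positions are counted from the first base of the junction's last codon, with one panel each for IgM, IgE, IgG, IgD and IgA. The highest bar is at position 2 in IgM and IgE, 3 in IgG, 4 in IgA and 24 in IgD. The IgD bar at position 24 comes from IGHJ3 rows (19.3%, against at most 0.0995% with the other J genes).

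The change did not follow the J gene. In IgM, G2A stood in 2.27% of IGHJ1, 2.43% of IGHJ2, 2.33% of IGHJ3 and 2.30% of IGHJ4 rows, and in IgG, G3A stood in 10.2%, 9.84%, 9.82% and 9.14% of IGHJ1 to IGHJ4 rows. Changes from C to A lay 12 bases further on. C14A was in 0.491% ± 0.0474 of IgM and 3.48% ± 4.25 of IgE rows, C15A in 1.10% ± 0.293 of IgG rows, and C17A in 0.262% ± 0.0489 of IgD rows. C14A was also in 0.514% ± 0.353 of IgG rows, and C15A and C17A could not be read in IGHJ3 rows, which have another base there. How these changes arose was not tested.

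Large productive clonotypes were followed by their stop version in proportion. Among productive clonotypes with a count of at least 1000, the same V, J, junction and constant gene with TAG in the last codon was found for 26 of 26 IgM clonotypes, at 2.40% ± 0.348 of the productive count (SD over clonotypes), and for 26 of 26 IgE clonotypes, at 2.45% ± 0.424. With TGA it was found for 164 of 169 IgG clonotypes, at 2.27% ± 0.531. In IgA the TAG version was found for 4 of 140 clonotypes and averaged 0.00105%, and in IgG it was found for 38 of 169 and averaged 0.0571%. These clonotypes come from the same 10 libraries and are not independent replicates.

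**Figure D2:**
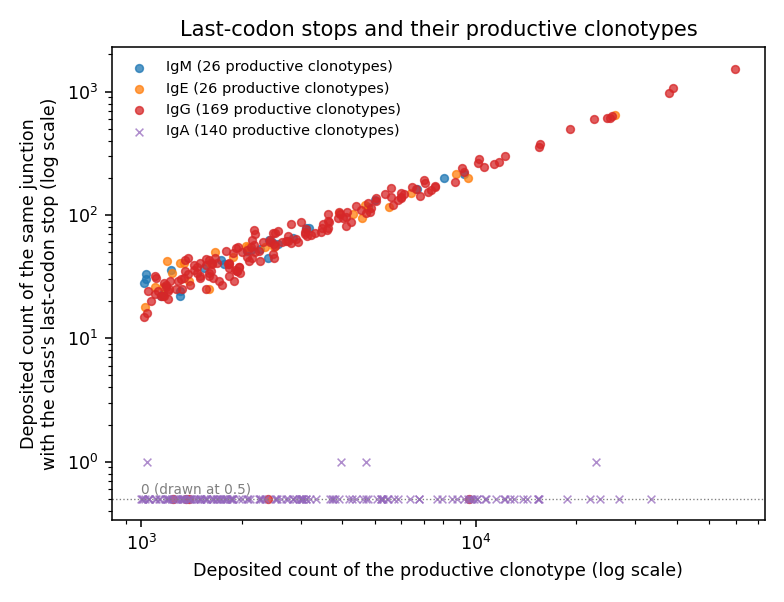
Deposited count of the junction with the class's last-codon stop (y, log scale) against the deposited count of the productive clonotype with the same V, J, junction and constant gene (x, log scale), for productive clonotypes with a count of at least 1000; each point is 1 clonotype, TAG for IgM, IgE and IgA and TGA for IgG, and a stop version that was not found is drawn at 0.5. Apart from 5 IgG clonotypes at 0, IgM, IgE and IgG points lie along one line, with class means of 2.27% to 2.45% of the productive count, and all but 4 of the 140 IgA clonotypes lie at 0.

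Near copies of productive junctions were unequal between the kinds. A junction was called near when a productive junction of the same mouse, with the same first-listed V and J gene, lay within 1 edit of it. This held for 46.8% of last-codon stops (89.7% in IgG and 37.6% in IgM), 5.57% of stops inside and 3.44% of out-of-frame junctions. Among out-of-frame junctions it was 1.80% in IgM, 21.9% in IgG and 44.4% in IgA.

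Switched classes held a larger non-productive share than IgM, and IgD a smaller one. Over all kinds it was 22.1% ± 4.22 of IgG clonotypes (12.9 to 26.2), of which 12.8 points were the last-codon stops described above, 13.6% ± 4.21 of IgA, 4.64% ± 0.717 of IgD and 7.38% ± 0.670 of IgM (n = 10 each). IgG stood 14.7 percentage points above IgM and was higher in 10 of 10 mice (adjusted p = 0.00293, two-sided exact sign-flip permutation test, Benjamini-Hochberg over 3 class pairs). IgA stood 6.25 points above, higher in 9 of 10 mice (adjusted p = 0.00391, same exact test), and IgD 2.74 points below, lower in 10 of 10 (adjusted p = 0.00293, same exact test). The smallest unadjusted p this test can give over 10 mice is 0.00195.

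The kinds made up these differences in different ways. Out-of-frame clonotypes were 8.05% ± 2.92 of IgG, 11.4% ± 4.07 of IgA, 3.83% ± 0.577 of IgD and 4.19% ± 0.587 of IgM clonotypes. Stops inside were 1.24% ± 0.606 of IgG, 1.79% ± 0.850 of IgA, 0.772% ± 0.185 of IgD and 0.884% ± 0.135 of IgM clonotypes. Without last-codon stops, the difference from IgM was 5.48 points for IgG, 8.06 for IgA and -0.597 for IgD, and all 3 passed the test. Without junctions near a productive one it was 3.40 points for IgG (adjusted p = 0.0322), -1.91 for IgD (adjusted p = 0.00586) and 0.963 for IgA (adjusted p = 0.5996), all by the exact sign-flip permutation test, so the IgA difference no longer passed. Weighted by count, both switched classes lay below IgM, with differences of -2.63 points for IgG and -5.14 for IgA. Whether a count stands for reads or molecules is not given in the sources used here.

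**Figure D3:**
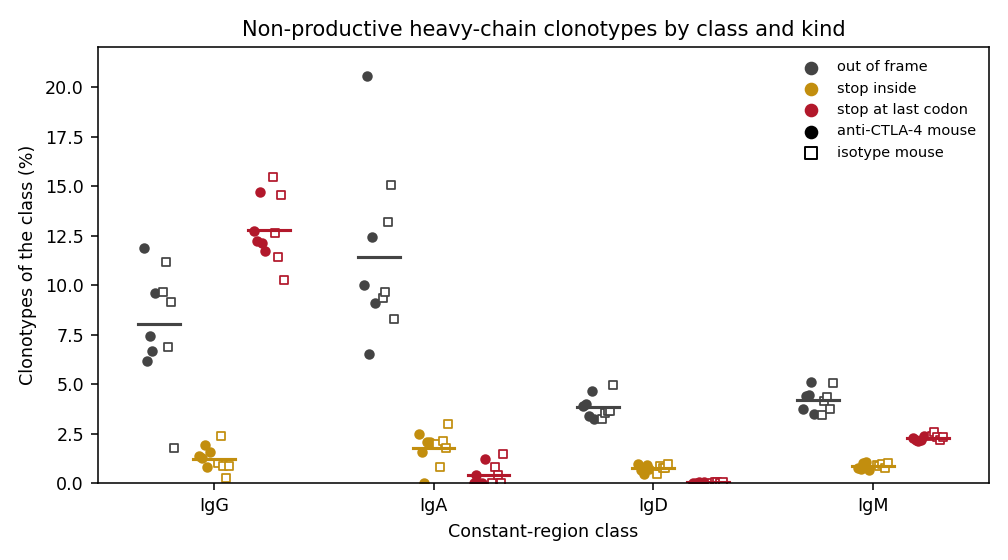
Share of the heavy-chain clonotypes of IgG, IgA, IgD and IgM (%, y) that were out of frame, had a stop inside the junction or had a stop at its last codon; filled circles are anti-CTLA-4 mice, open squares isotype mice and lines means of 10 mice. Last-codon stops lie between 10.3 and 15.4 in IgG, near 0 in IgD and between 2.14 and 2.58 in IgM, and the mice of both treatments overlap throughout.

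Single mice and single groups of related sequences weighed on the switched classes. The out-of-frame share of IgG was lowest in isotype replicate 5, with 4 of 224 clonotypes (1.79%, exact 95% interval 0.489 to 4.51), and the out-of-frame share of IgA highest in anti-CTLA-4 replicate 2, with 52 of 253 (20.6%, 15.7 to 26.1). Intervals cover counting error only. In that IgA library, 35 of the 52 clonotypes had IGHV1-56, IGHJ2 and a junction of 38 nucleotides, in 33 different junctions, and a median of 9.86 V mismatches per 100 nucleotides. Over all mice, 5 groups of at least 10 switched out-of-frame clonotypes with one V gene, J gene and junction length held 105 of 977 switched out-of-frame clonotypes (10.7%). One of them, in isotype replicate 3, had 27 IgG and IgE clonotypes with IGHV5-12 and IGHJ4 at 40 nucleotides.

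J genes upstream of the constant region are used in unequal amounts. Non-productive clonotypes used IGHJ1 in 13.2% ± 1.34, against 16.3% ± 0.352 of productive clonotypes (lower in 10 of 10 mice), and IGHJ4 in 24.3% ± 1.87 against 27.1% ± 0.564 (lower in 10 of 10). They used IGHJ2 in 36.1% ± 1.93 against 33.0% ± 0.487 (higher in 9 of 10) and IGHJ3 in 26.4% ± 1.45 against 23.6% ± 0.405 (higher in 10 of 10). Adjusted p was 0.00391 for IGHJ2 and 0.0026 for the other 3 (two-sided exact sign-flip permutation test, Benjamini-Hochberg over 4 genes). The difference lay in the out-of-frame clonotypes, with 11.9%, 37.8%, 27.6% and 22.7% for IGHJ1 to IGHJ4, and in the stops inside, with 11.6%, 35.8%, 28.3% and 24.4%. Last-codon stops had 16.5%, 32.7%, 23.3% and 27.6%, each within 1 point of the productive share. Weighted by count, IGHJ4 was 2.25 and IGHJ3 -0.529 points from productive, the opposite direction, while IGHJ1 and IGHJ2 kept their direction. Over the alternatives other than leaving out a mouse, 2 J gene results kept their direction but lost their call. The IGHJ3 and IGHJ4 differences thus hold for clonotypes and not for counts. Those of IGHJ1 and IGHJ2 are stated for clonotypes only.

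Junctions of non-productive clonotypes averaged 41.1 ± 0.158 nucleotides, against 41.3 ± 0.101 in productive ones, a difference of -0.152 (adjusted p = 0.0391, two-sided exact sign-flip permutation test, lower in 8 of 10 mice). Out-of-frame junctions averaged 40.8 ± 0.175 nucleotides and were shorter than productive ones in 10 of 10 mice, with a difference of -0.466 (adjusted p = 0.00586, same exact test). In-frame junctions with a stop averaged 41.6 ± 0.348, a difference of 0.297 (adjusted p = 0.0391, same exact test, longer in 7 of 10). Of these, junctions with a stop inside averaged 42.8 ± 0.469 and last-codon stops 41.1 ± 0.540. All 3 tests lost their calls when clonotypes with a count of 1 were left out, and weighting by count turned the out-of-frame difference to 1.32 nucleotides. Leaving out any of 8 single mice also ended the first and the last call (differences of -0.181 to -0.126 and 0.216 to 0.363), and no single mouse ended that of out-of-frame junctions. Junctions of at least 60 nucleotides were 1.36% of out-of-frame, 2.11% of stop-inside and 1.22% of last-codon clonotypes, against 1.23% of productive ones.

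Lengths of out-of-frame junctions varied more among themselves, with an SD over clonotypes of 9.17 nucleotides against 7.91 in productive ones (means of 10 mice). The N nucleotides added between V and D averaged 4.68 in out-of-frame, 4.69 in stop-inside and 4.49 in last-codon junctions, against 4.56 in productive ones, and those between D and J 3.37, 3.47 and 3.04 against 3.11. No D gene was called in 10.1%, 4.90% and 12.8% of these kinds, against 11.9% of productive clonotypes. Last-codon stops thus lay on the other side of productive clonotypes from both other kinds in all 3 measures. These values were not tested.

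V genes differed widely between non-productive and productive clonotypes. Of 181 V calls, 96 with enough clonotypes were tested, and they held 96.4% of the non-productive clonotypes. Of these 96 calls, 34 took a higher and 34 a lower share of non-productive clonotypes (35.4% of calls in each direction, 70.8% in all, adjusted p under 0.05, edgeR's quasi-likelihood test with mouse as a block and Benjamini-Hochberg adjustment over 96 calls). The sizes were unequal, since 19 calls were at least 4-fold higher and 1 at least 2-fold lower. The median log2 fold change over the 96 calls was -0.04. Of the called ones, 27 were higher in each of the 10 mice, 25 of them with no overlap between the statuses, and 23 were lower in each mouse, 14 without overlap. The filter let 7 calls in through their non-productive columns alone, so these could hardly have come out lower. All 7 were among the 34 and among the 19 at least 4-fold higher (IGHV1-23, IGHV1-83, IGHV11-1, IGHV3-3, IGHV6-5 and the joint calls IGHV1-34/IGHV1-36 and IGHV1-53/IGHV1-64). Values given for them below are a description. Of the other 89 calls, 27 were higher.

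The sizes were different without the stop kinds. With out-of-frame clonotypes alone, 98 calls were tested and 34 were higher and 42 lower (34.7% and 42.9%, same edgeR test), 24 of them at least 4-fold higher and 22 at least 2-fold lower. The median log2 fold change was then -0.27. Here too, calls with few productive clonotypes could enter through their out-of-frame columns alone and hardly come out lower. Among the higher calls were IGHV16-1 (31 out-of-frame against 12 productive clonotypes) and IGHV11-1 (76 against 13). How many calls entered in this way was not determined, so the numbers of higher calls are in part a description.

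**Figure D4:**
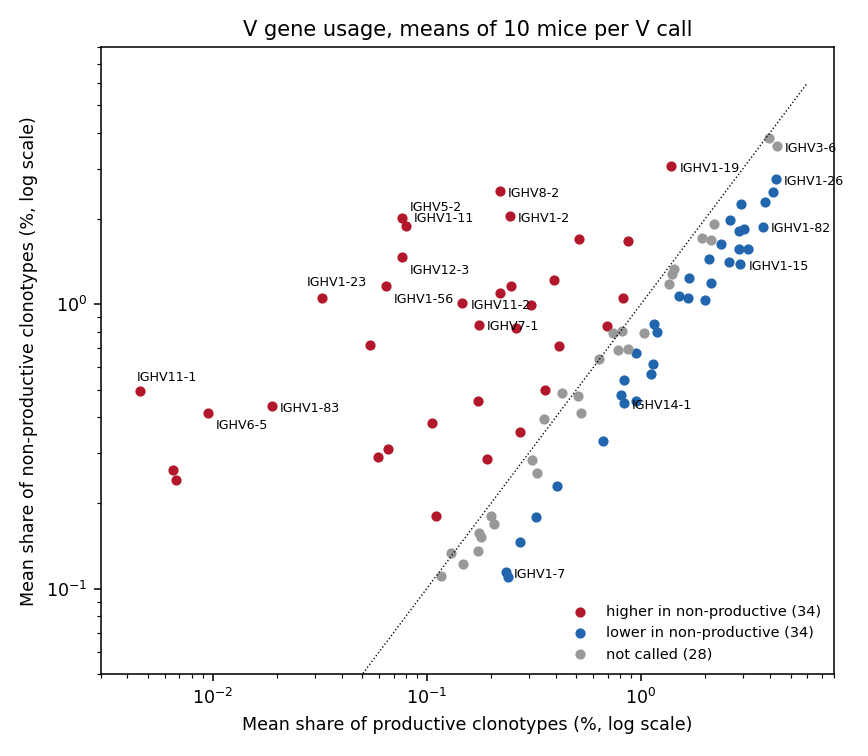
Mean share of non-productive clonotypes (%, y, log scale) against the mean share of productive clonotypes (%, x, log scale) for the 96 V calls tested; each point is 1 V call, the mean of 10 mice, coloured by the edgeR call, and the dotted line marks equal shares. Calls far above the line were rare among productive clonotypes, such as IGHV11-1 (0.496% of non-productive and 0.0046% of productive clonotypes), and the calls below the line lie close to it.

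The IGHV5-2 segment, which lies nearest to the D segments among the functional V genes and is known for frequent rearrangement and poor pairing with surrogate light chain, was the clearest case. It made up 1.80%, 1.61%, 2.43%, 2.67% and 1.94% of non-productive clonotypes in anti-CTLA-4 replicates 1 to 5 and 1.77%, 1.41%, 1.72%, 2.07% and 2.64% in isotype replicates 1 to 5, while its productive share ran from 0.0506% to 0.0997% over the 10 mice. All 10 non-productive values thus lay above all 10 productive values. In numbers, 450 non-productive clonotypes stood against 225 productive ones, with a log2 fold change of 4.80 ± 0.15 (SE, edgeR's quasi-likelihood test, adjusted p = 6.53e-62). Only 4 of the 450 were last-codon stops.

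V genes typical of innate-like B cells also took a higher share. IGHV11 and IGHV12-3 encode receptors for phosphatidylcholine, and IGHV7-1 receptors for phosphorylcholine, such as those of B-1 cells. IGHV11-1 had 106 non-productive and 13 productive clonotypes, with 0.215%, 0.403% and 0.865% of non-productive clonotypes as the lowest, median and highest mouse and at most 0.00854% of productive ones (log2 fold change 6.60). IGHV12-3 had 331 against 225 clonotypes (1.02%, 1.51% and 1.83%, against 0.0410%, 0.0692% and 0.118%; 4.40 ± 0.16, adjusted p = 4.08e-53 by edgeR). IGHV11-2 had 223 against 418 and IGHV7-1 had 184 against 496, with log2 fold changes of 2.90 ± 0.17 and 2.38 ± 0.17. On deposited counts in place of clonotypes, IGHV11-2 was no longer called. IGHV11-1 is among the 7 calls let in through their non-productive columns alone, so its values are a description. IGHV12-3, IGHV11-2 and IGHV7-1 were higher in each of the 10 mice, without overlap. The same held for 25 of all 96 calls, some of them let in that way.

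Out-of-frame junctions ended in TGG in 12383 of 13265 clonotypes (93.4%), and in 363 of 387 with IGHV5-2, 71 of 76 with IGHV11-1 and 250 of 262 with IGHV12-3. The most counted example is printed for these and other enriched calls, with the last codon in capitals to show the intact TGG behind a shifted frame.
IGHV5-2 with IGHJ4, 49 nucleotides, count 25 (anti-CTLA-4 replicate 1): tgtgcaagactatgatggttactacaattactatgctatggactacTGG
IGHV11-1 with IGHJ4, 46 nucleotides, count 43 (anti-CTLA-4 replicate 2): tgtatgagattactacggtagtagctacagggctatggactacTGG
IGHV12-3 with IGHJ4, 40 nucleotides, count 21 (isotype replicate 2): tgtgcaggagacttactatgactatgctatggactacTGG
IGHV1-11 with IGHJ3, 17 nucleotides, count 13 (anti-CTLA-4 replicate 3): tttcctttgcttacTGG
IGHV8-2 with IGHJ4, 52 nucleotides, count 22 (isotype replicate 3): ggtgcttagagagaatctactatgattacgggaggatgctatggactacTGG
The lengths of these leave a remainder of 1 or 2 when divided by 3. The IGHV1-11 and IGHV8-2 examples do not begin with the cysteine codon tgt that opens the others. No out-of-frame IGHV8-2 junction did (0 of 465), while 346 of 366 with IGHV1-11 did.

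Other calls with large excess were rare among productive clonotypes. IGHV1-11 had 422 non-productive and 219 productive clonotypes (log2 fold change 4.76 ± 0.15) and 1 last-codon stop. IGHV8-2, the fifth most used call among non-productive clonotypes, had 570 against 612 (1.93%, 2.33% and 3.45%, against 0.173%, 0.211% and 0.267%; 3.67 ± 0.12, adjusted p = 1.56e-58 by edgeR). IGHV1-23 had 242 against 93 (5.14) and IGHV6-5 had 95 against 27 (5.52). The joint calls IGHV1-53/IGHV1-64 (58 against 18, 5.33) and IGHV1-34/IGHV1-36 (53 against 20, 5.11) are joint names, and their sequences lie far from both genes, as given below. In 11 of the called V genes the non-productive clonotypes outnumbered the productive ones, where the median call had 6.45% non-productive clonotypes.

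Some of these calls held many sequences with a stop codon in the V region. IGHV1-56 (253 non-productive and 185 productive clonotypes, 4.24 ± 0.18) had a stop in the translated V region of 93.9% of out-of-frame and 33.5% of productive clonotypes. In this call, 200 of 212 out-of-frame and 61 of 185 productive clonotypes lay over 5 mismatches per 100 from germline. The sequence shared by the out-of-frame ones holds a stop codon and differs from the IGHV1-56 germline at 26 positions. Whether the IGHV1-56 segment itself carries a stop was not tested. IGHV1-83 (101 against 51, 4.76) had one in 82.4% of its productive clonotypes. Apart from these, IGHV1-2 (466 against 705, 3.20 ± 0.13) and IGHV7-1 are labelled as pseudogenes in the RefSeq annotation of GRCm38.p6, as 5 of the 112 V genes in these files are, while 63 of all 183 V genes of the locus are so labelled. Few of their clonotypes had a stop in the V region, 1.76% of out-of-frame and 0.851% of productive ones for IGHV1-2 and 2% and 1.21% for IGHV7-1. IGHV7-3, another so labelled, was not called (log2 fold change 0.01). IGHV8-11 had 81 non-productive clonotypes, 2 to 17 in each of the 10 mice, and 0 productive ones. A floor of 3 clonotypes over the 10 mice puts its share at least 344-fold higher among non-productive clonotypes (0.363%, against at most 0.00105%). It was not tested, and it was named after its values were seen.

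The lower calls included much used genes of the productive repertoire, and over all kinds 1 of the 34, IGHV5-9, was at least 2-fold lower. IGHV1-15 had 310 non-productive and 8313 productive clonotypes, with 0.953%, 1.33% and 1.77% of non-productive clonotypes as the lowest, median and highest mouse, against 2.57%, 2.90% and 3.17% of productive ones (log2 fold change -0.94 ± 0.10, adjusted p = 5.46e-15 by edgeR). IGHV1-82 had 408 against 10578 (1.53%, 1.84% and 2.46%, against 3.39%, 3.77% and 4.02%; -0.87 ± 0.10, adjusted p = 4.98e-15 by edgeR). In both, no mouse of one status reached the range of the other. IGHV1-7, IGHV1-80, IGHV9-1, IGHV14-1, IGHV5-17, IGHV14-3, IGHV1-52 and IGHV1-69 were lower in every mouse too, with log2 fold changes between -0.91 and -0.73. Unlike the enriched calls, IGHV1-15 and IGHV1-82 held many last-codon stops, 162 of 310 and 208 of 408. Out of frame alone, IGHV1-15 had a log2 fold change of -1.75 ± 0.14 and IGHV1-82 of -1.65 ± 0.13, both called and over 3-fold lower, while IGHV1-7 was no longer called (-0.68 ± 0.36, adjusted p = 0.0753 by edgeR). IGHV5-2 had 5.22 ± 0.17 in the same fit. The 5 calls most used by non-productive clonotypes were IGHV1-62-3/IGHV1-72 (872 clonotypes, 0.10 ± 0.09, adjusted p = 0.293), IGHV3-6 (811, -0.13 ± 0.08, adjusted p = 0.159), IGHV1-19 (693, 1.29 ± 0.09, adjusted p = 2.15e-26), IGHV1-26 (616, -0.50 ± 0.09, adjusted p = 2.14e-07) and IGHV8-2, by the same edgeR test. IGHV3-6 was called lower under 11 of the alternatives, out-of-frame clonotypes alone among them (-0.35 ± 0.11).

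By family, IGHV1, the largest, made up 56.1% ± 1.88 of non-productive and 64.9% ± 0.682 of productive clonotypes. Of its 50 tested calls, 11 were higher and 23 lower. Among the 11 are IGHV1-23, IGHV1-83, IGHV1-34/IGHV1-36 and IGHV1-53/IGHV1-64, which were let in through their non-productive columns alone. IGHV5 made up 5.66% ± 0.738 against 3.80% ± 0.292, with 4 of 8 calls higher and 3 lower. IGHV2 made up 4.12% ± 0.517 against 2.58% ± 0.0992, with 5 of 7 calls higher and 0 lower. IGHV9 (4.01% ± 0.469 against 5.99% ± 0.314) and IGHV14 (4.25% ± 0.884 against 6.28% ± 0.560) had 2 of 4 and 3 of 5 calls lower and 0 higher. The calls within IGHV5 ran from 4.80 for IGHV5-2 to -1.07 for IGHV5-9, so the family share hid opposite members. In the gene order of RefSeq (GRCm38.p6), 90 single-gene calls were split evenly from the IGHV5-2 end, next to the D segments, outward. The first 30 calls had 15 higher and 7 lower (median log2 fold change 0.37), the middle 30 had 11 and 8 (0.08), and the last 30 had 5 and 18 (-0.33). Over all 96 calls 35.4% were called in each direction. The 90 calls include IGHV1-23, IGHV1-83, IGHV11-1, IGHV3-3 and IGHV6-5, let in through their non-productive columns alone, which could hardly come out lower. The numbers of higher calls and the medians by position are therefore in part a description, and the order along the locus was not tested.

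V mismatches to germline, counted per 100 nucleotides over at least 200 V nucleotides, measure hypermutation where the V call is right. Mean mismatches were 0.890 ± 0.0948 in non-productive against 0.134 ± 0.0151 in productive IgM clonotypes and 1.47 ± 0.206 against 0.119 ± 0.00877 in IgD, higher in 10 of 10 mice in both (adjusted p = 0.00391, two-sided exact sign-flip permutation test over 4 classes). Medians over clonotypes did not differ in either class (a difference of 0). IgG had 0.746 ± 0.289 against 0.639 ± 0.224 (adjusted p = 0.295, exact test, higher in 5 of 10 mice). The IgG difference of 0.107 was 0.693 without junctions near a productive one (adjusted p = 0.0104, exact test) and 0.612 without last-codon stops (adjusted p = 0.0469), both called, and 0.603 out of frame alone (adjusted p = 0.0990). IgA had 2.14 ± 2.20 against 0.864 ± 0.225 (adjusted p = 0.135, exact test, n = 9, higher in 5 of 9). The highest IgA mouse was anti-CTLA-4 replicate 2, at 7.09, the library with the IGHV1-56 group of 35 clonotypes. Without it the mean difference of 1.27 was 0.672. The next highest were anti-CTLA-4 replicate 5, at 3.93, and isotype replicate 2, at 2.82. The V name of IGHV1-56 clonotypes far from germline is that of the nearest gene only, as given below. How much of the 7.09 is hypermutation was therefore not tested. In the kinds, out-of-frame IgM clonotypes without a mismatch were 72.5% ± 2.48, last-codon stops 78.8% and productive clonotypes 82.1%, and last-codon stops averaged 0.165 mismatches.

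The IgM and IgD means were set by a tail of sequences far from their called V gene. Over 5 mismatches per 100 stood in 1375 of 13265 out-of-frame clonotypes (10.4%), against 902 productive clonotypes (0.317%). At least 10 such clonotypes stood in 24 V calls, which held 1228 of them (89.3%). In most of these calls the sequences differed from germline in the same way. In 1116 of the 1228 (90.9%) the V region lay within 1 mismatch of one shared sequence per call. That sequence was taken as the most common base at each position over these same clonotypes. By call the share was lowest in IGHV4-1 (3 of 10), IGHV8-12/IGHV8-8 (6 of 11) and IGHV1-56/IGHV1-77 (8 of 14). IGHV1-19 had the most, 392 of its 486 out-of-frame clonotypes (80.7%), in 10 mice, with a shared sequence that differs from the germline at 39 positions and 366 clonotypes within 1 mismatch of it. Over the first 150 V nucleotides the 2 sequences compare as follows, with the 22 differing bases in capitals to show that they are spread along the segment.
IGHV1-19, sequence shared by the out-of-frame clonotypes: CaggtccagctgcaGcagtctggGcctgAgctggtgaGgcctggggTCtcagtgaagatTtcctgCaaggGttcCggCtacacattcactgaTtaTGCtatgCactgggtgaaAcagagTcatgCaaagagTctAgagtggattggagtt
IGHV1-19, germline of the authors' alignment: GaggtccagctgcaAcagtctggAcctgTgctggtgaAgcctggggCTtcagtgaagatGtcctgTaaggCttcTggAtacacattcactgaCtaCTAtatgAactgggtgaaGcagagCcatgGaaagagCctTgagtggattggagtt
Among productive IGHV1-19 clonotypes, 226 of 3965 were in the tail and 217 of these lay within 1 mismatch of the same shared sequence.

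Other calls had the same form. IGHV1-56 had 200 of 212 out-of-frame clonotypes in the tail, with 26 differing positions and a stop codon in the shared sequence, and IGHV3-1 had 157 of 208, with 16. All out-of-frame clonotypes of IGHV8-12/IGHV8-5 (51), IGHV1-53/IGHV1-64 (48), IGHV1-34/IGHV1-36 (42) and IGHV16-1 (31) were in it. For these calls the V name is that of the nearest gene in the authors' germline set, at 19 to 57 differences, and whether the segment is another gene was not tested. Without clonotypes over 5 mismatches per 100, the mean fell to 0.153 ± 0.0257 in non-productive IgM, against 0.0991 ± 0.0141 in productive IgM, and to 0.118 ± 0.0233 against 0.0834 ± 0.00499 in IgD, and both differences still passed the exact test. IgG (0.507 against 0.588) and IgA did not. The IgA means were 0.828 over 9 mice and 0.806 over 10. The difference within the mice that had both was negative, as given further below. Under the same restriction IGHV1-19 went to a log2 fold change of -0.25 (adjusted p = 0.101 by edgeR), so its excess lay in the tail.

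**Figure D5:**
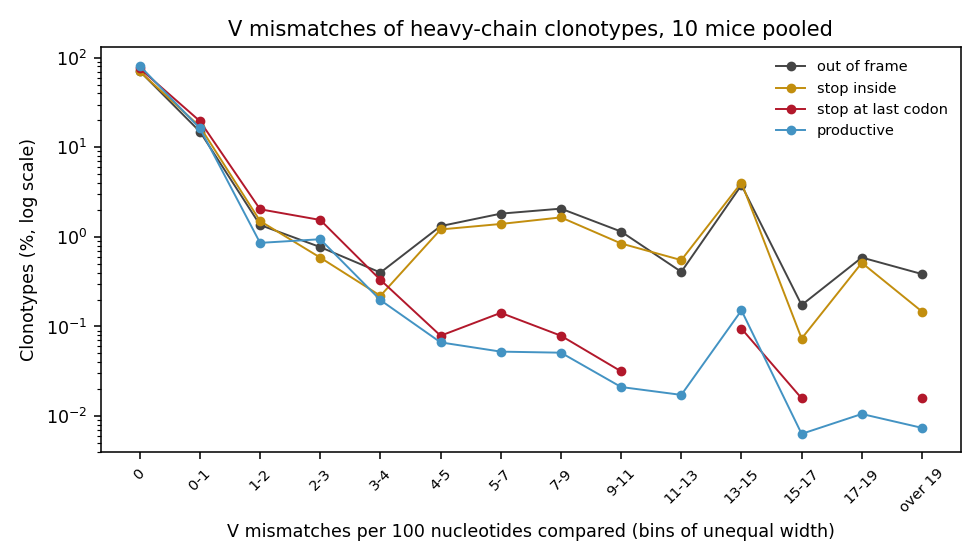
Percent of clonotypes (y, log scale) by V mismatches per 100 nucleotides (x, bins of unequal width) for out-of-frame, stop-inside, last-codon and productive clonotypes of 10 mice pooled. Out-of-frame and stop-inside clonotypes have a second peak at 13 to 15 mismatches (3.79% and 4.04%), against 0.0946% of last-codon stops and 0.151% of productive clonotypes.

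Non-productive clonotypes had fewer counts each. The mean log2 count per clonotype was 0.32 ± 0.08 against 0.49 ± 0.17 in IgM and 1.76 ± 0.29 against 2.54 ± 0.27 in IgG (lower in 10 of 10 mice), and 1.32 ± 0.50 against 4.20 ± 0.39 in IgA (lower in 9 of 9), each with an adjusted p of 0.00521 or lower by the two-sided exact sign-flip permutation test over 4 classes. In IgD it was 0.28 ± 0.13 against 0.31 ± 0.13 (adjusted p = 0.0254, exact test, lower in 8 of 10), a call that ended when any of 5 single mice was left out. Out of frame alone the differences were -0.083 in IgM, -0.024 in IgD (not called), -1.39 in IgG and -2.70 in IgA. Among clonotypes with a count of at least 2 the IgM difference was 0.03, with no call. The IgM difference came with a large share of clonotypes seen once, 93.7% of last-codon stops and 68.1% of out-of-frame clonotypes, against 63.1% of productive ones. In IgG the last-codon stops were the less often single kind, at 32.3%, with 50.6% of out-of-frame and 36.6% of productive clonotypes. By class, out-of-frame clonotypes were 70.6% IgM, 21.0% IgD, 5.71% IgG and 1.77% IgA, against 72.5%, 24.3%, 2.41% and 0.563% of productive clonotypes.

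Few rearrangements occurred in more than 1 mouse. Taken by V, J and junction, 41 of 12903 out-of-frame rearrangements (0.318%) were in at least 2 mice, 85 of 5869 last-codon stops (1.45%), 3 of 2685 stops inside and 1653 of 276315 productive ones (0.598%). The most widely found are printed with the last codon in capitals as examples of last-codon stops and of an out-of-frame junction found in several mice.
IGHV11-2 with IGHJ1, 5 mice: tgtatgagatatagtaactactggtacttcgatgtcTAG
IGHV3-6 with IGHJ2, 4 mice: tgtgcaagctatagtaactttgactacTAG
IGHV1-64 with IGHJ4, out of frame, 3 mice: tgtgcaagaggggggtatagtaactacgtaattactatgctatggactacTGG
The IGHV11-2 stop had counts of 5 and 2 in anti-CTLA-4 replicates 1 and 4 and of 4, 3 and 2 in isotype replicates 2, 3 and 5, and its TGG version was in all 10 mice at counts of 14 to 205. The out-of-frame IGHV1-64 junction had 1611 counts in anti-CTLA-4 replicate 1, 46 in replicate 2 and 1 in replicate 5, so the second mouse held 2.86% of the first. Replicate 1 held its most counted productive clone, IGHV1-50 with IGHJ2, at 104576 counts and replicate 2 at 3184, or 3.04% of replicate 1. The IGHV1-50 stop printed first above was found in 4 mice, anti-CTLA-4 replicates 1 to 4, at counts of 2707, 49, 6 and 4. Its TGG version fell in the same order, with 377, 120 and 43 counts in replicates 3, 4 and 5. Why the counts fall with the replicate number was not tested, so no effect of treatment is read from this sequence.

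Both transcripts of one naive B cell come from the same rearrangement, so IgM and IgD can share a junction. This was so for 0.139% of out-of-frame rearrangements (18) and for 0 last-codon stops, against 0.998% of productive ones. IgD had only 32 last-codon stop clonotypes in all mice, so the 0 cannot show whether such rearrangements were shared. A rearrangement was found with both an unswitched and a switched constant region in 0.711% of out-of-frame (92) and 0.332% of productive cases. These shares depend on the counts per clonotype, which differ between the statuses as given above, and were not tested.

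Anti-CTLA-4 against isotype was the comparison of the study. Non-productive clonotypes took 7.42% ± 0.624 of the heavy chains of anti-CTLA-4 mice (6.40 to 7.92) and 7.13% ± 0.579 in isotype mice (6.53 to 7.87), a difference of 0.286 points (p = 0.460, two-sided exact permutation test over 252 reassignments, smallest possible p 0.00794, adjusted p = 1). By class it was 7.34% against 7.43% in IgM, 4.65% against 4.63% in IgD, 22.4% against 21.7% in IgG and 13.7% against 13.6% in IgA, with overlapping mice in each class and an adjusted p of 1 (exact test). Of non-productive clonotypes, 59.0% ± 3.41 against 59.0% ± 3.28 were out of frame, 29.3% ± 4.29 against 28.5% ± 3.33 were last-codon stops and 11.7% ± 1.37 against 12.4% ± 0.327 had stops inside, in anti-CTLA-4 against isotype mice. V mismatches of non-productive clonotypes were called different in no class, with an adjusted p of 0.275 or higher (exact test). In IgD they were 1.37 ± 0.105 against 1.57 ± 0.242, with overlapping mice.

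The log2 count per non-productive clonotype was compared between treatments after the data had been seen. In IgD it was 0.140, 0.183, 0.0732, 0.261 and 0.258 in anti-CTLA-4 mice and 0.284, 0.499, 0.315, 0.322 and 0.421 in isotype mice, so every anti-CTLA-4 mouse lay below every isotype mouse. The difference was -0.186 (p = 0.00794, adjusted p = 0.0317 over 4 classes, two-sided exact permutation test). The call ended with a replicate block, with medians (a difference of 0) and when any of 5 single mice was left out. Productive IgD clonotypes had 0.226 ± 0.0814 in anti-CTLA-4 and 0.390 ± 0.127 in isotype mice with overlapping ranges, and this difference was not tested. Non-productive IgM had 0.274 ± 0.0272 against 0.362 ± 0.103, IgG 1.83 ± 0.302 against 1.68 ± 0.295 and IgA 1.22 ± 0.434 (n = 4) against 1.40 ± 0.577, none of them called (adjusted p of 0.238 or higher, exact test). Whole libraries held 4.53 to 16.3 counts per heavy-chain clonotype in anti-CTLA-4 and 5.54 to 9.77 in isotype mice, and the part of this in the IgD difference was not tested.

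No V call of the non-productive clonotypes passed between treatments. Of 62 calls tested, 0 were called (0%, edgeR's quasi-likelihood test), with 3 at an unadjusted p under 0.05, and DESeq2 called 0 with 1 under 0.05 unadjusted. IGHV1-2 came nearest, with 1.56%, 1.28%, 1.98%, 1.62% and 1.61% in anti-CTLA-4 mice and 2.39%, 2.95%, 2.15%, 1.88% and 2.94% in isotype mice (log2 fold change -0.65 ± 0.19, adjusted p = 0.0694 by edgeR). The ranges overlapped by 1 mouse of each group, and 5 of the alternatives called it. The ratio of non-productive to productive use passed the test between treatments for 0 of 96 calls (0%, edgeR interaction term), with 6 at an unadjusted p under 0.05 and DESeq2 calling 0 with 3. IGHV5-12 had the smallest p (-1.61 ± 0.47, adjusted p = 0.0748 by edgeR) and rested in part on isotype replicate 3, the mouse with the group of 27 clonotypes. Its log2 value was between -1.98 and -0.89 when mice were left out in turn. Nothing in the labels ties mice of the 2 groups together, and p-values measure the spread between these 10 mice.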

How the data were processed

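The authors deposited a table for each mouse. Per the file headers, which follow the AIRR standard, a row holds gene calls, a germline alignment, a junction and a raw whole-number count. Per the labels' protocols, libraries came from a kit with molecular identifiers. Not given in the sources used here: whether the count stands for reads or molecules, the aligner and the germline set. Depth was 33568 to 63017 rows and 382184 to 790139 counts per library.

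Non-productive heavy-chain rows were collapsed to clonotypes by V call, J gene, junction and constant gene within a mouse. Joint V calls were kept as joint names (1945 non-productive clonotypes). Mismatches were taken between aligned query and germline over at least 200 V nucleotides. V usage was tested on clonotype numbers with edgeR 4.0.16 (quasi-likelihood, TMM factors, filterByExpr, mouse as a block; R 4.3.3), with DESeq2 1.42.0 as an alternative, and checked on simulated data. Values per mouse were compared by exact permutation tests in Python 3.11.15 with Benjamini-Hochberg adjustment within each of 8 families, at a threshold of 0.05. Classes with under 10 non-productive clonotypes in a mouse were left out for that mouse in tests on mismatches and counts. Rows without a junction entered no clonotype.

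Named V calls were the 10 highest and the 10 lowest by log2 fold change among called ones with one direction in all 10 mice, the 5 most used, the IGHV5 and IGHV2 families, 4 B-1 calls and the 5 smallest p-values per direction between treatments. Calls named for their mismatch tail, and those for stop codons, were chosen after their values were seen. The members and lists were chosen with earlier results of these data known. All 112 V genes matched RefSeq (GRCm38.p6), used for order and gene type only.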

Additional observations from a re-analysis of the deposited data

Results flagged for a closer look

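Of 70 groups of up to 5 mice examined for a single value far from the others, 2 held one. Chance alone flags about 1 in 20 such groups. The IgA mismatch and count groups of anti-CTLA-4 mice lacked replicate 1. Productive IgG clonotypes of isotype replicate 5 had 1.23 V mismatches per 100 nucleotides, and the next highest isotype mouse had 0.646. This mouse also had the fewest out-of-frame IgG clonotypes (4 of 224). Anti-CTLA-4 replicate 4 had 3706 non-productive heavy-chain rows, and the next highest anti-CTLA-4 mouse had 2528. That library was also the one of its group whose most counted non-productive clonotype was out of frame.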

How the results depend on the processing

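Of the values that answer a comparison, 242 kept direction and call under the alternatives other than leaving out a mouse, 27 turned direction, 16 lost and 2 gained a call, and 9 counts moved by over 1.5 times; the causes were not tested. V calls higher and lower were 65 and 53 without the filter (181 calls tested), and 20 were higher among clonotypes with a count of at least 2 (69 tested). That minimum gave junction differences of -0.0961 (all), -0.324 (out of frame) and 0.300 (in frame with a stop), log2 counts of 0.0290 in IgM and -0.0185 in IgD, -0.00939 for IgG mismatches, and treatment differences of 0.236 (IgM share), -0.588 (IgD), -0.113 (IgA), 0.00579 (IgD mismatches) and 0.0957 (IgM log2 count). Weighting by count gave -2.61, 0.888, -0.529 and 2.25 points for IGHJ1 to IGHJ4, junction differences of 0.449, 1.32 and -0.0248, class differences of -2.63 (IgG) and -5.14 (IgA), and -0.0520 for treatment in IgD. Medians gave log2 counts of -0.20 (IgM), 0 (IgD) and -0.45 (IgG) and mismatch differences of 0 (IgM), 0 (IgD) and -0.136 (IgG), and 0 for treatment in the IgD log2 count. Without junctions near a productive one, the junction difference was -0.0527, IgA minus IgM 0.963, IgG mismatches 0.693 (now called) and treatment differences 0.211 (IgM share) and -0.00311 (IgG log2 count). Out of frame alone gave -0.0240 for the IgD log2 count and, for treatment, 0.0906 in IgM and -0.113 for the IgG log2 count, and leaving out last-codon stops 0.0451 and -0.0789 for these and 0.612 for IgG mismatches (now called). Without V mismatches over 5 per 100, mismatch differences were -0.0815 (IgG) and -0.00236 (IgA), treatment differences 0.0200 (IgD) and -0.125 (IgA), and IGHV1-19 -0.25. Without rearrangements higher in another mouse, treatment in IgA was -0.192. IGHV1-62-3/IGHV1-72, not called, had log2 fold changes of -0.36 without the filter, -1.68 on deposited counts and -0.10 out of frame, and 0.86 in the treatment ratio on deposited counts, where IGHV10-3 had 0.78 between treatments. Between treatments, 1 V call, IGHV1-2, was lower with a count minimum of 2, with the first-listed V gene, without near junctions, without last-codon stops and with a replicate block, and 1 ratio, IGHV5-12, was lower without last-codon stops.

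Leaving out 1 mouse at a time gave -0.0396 to -0.0271 for the IgD log2 count, -0.181 to -0.126 and 0.216 to 0.363 nucleotides for all and for in-frame junctions, treatment differences of -2.12 to 1.89 (IgA), -0.234 to 0.356 (IgD), -1.44 to 1.88 (IgG) and -0.342 to 0.159 points (IgM), -0.0719 to 0.00991 for treatment in IgM mismatches, -0.207 to -0.153 in the IgD log2 count, 0 to 1 lower ratios, and -0.0119 to 0.15 for IGHV1-62-3/IGHV1-72. Same-numbered mice of the 2 groups correlated at 0.266, 0.171, 0.0484, 0.0990 and 0.0772 in their deviations, so the numbers were not taken as pairs; the replicate block gave 1 treatment call, against 0 without it, and -0.186 for treatment in the IgD log2 count, no longer called. Clonotypes with a count of 1, 76.3% of non-productive IgM clonotypes, limit what can be said of single sequences, and rare classes such as IgE (174 non-productive clonotypes) were not tested.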

Other observations

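Rows marked non-productive without a junction were left out of the clonotypes. They were 7.66% ± 0.844 of the non-productive rows in anti-CTLA-4 mice and 6.17% ± 0.766 in isotype mice (n = 5 each, not tested), and 46.2% of the 1769 rows had under 200 V nucleotides aligned. One of them, an IgA row with IGHV2-2 in isotype replicate 2, had a count of 3464 over 92 aligned V nucleotides, where the next highest of these rows had 73. It thus held more counts than any non-productive clonotype with a junction.

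The following covers productive rows and rows with a last-codon stop. At position 24 from the last junction codon, IgD rows with IGHJ3 differed from the most common base in 19.3% of 15566 rows. With the same J gene, IgM rows differed in 0.0821%, IgG rows in 0.411%, IgA rows in 0.785% and IgE rows in 1.15%. IgA rows differed most at position 4 (4.14%), which was the highest position of no other class.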
